A study of Mus musculus with 21 samples.

Results

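The effect of MPTP was compared within mice that had all received irisin, which left 6 of the 21 mice of the series, 3 in each of the groups named MPTP_IRISIN and IRISIN. All mice were male C57BL/6 mice, 6 weeks old per the labels, and the tissue was midbrain, described in the methods as nigral tissue taken by hand. MPTP_IRISIN mice received MPTP at 30 mg/kg per day for 5 days and then irisin at 200 µg/kg per day for 5 days, all by intraperitoneal injection. IRISIN mice received vehicle for 5 days and then the same irisin course, so that both groups shared the irisin and differed in MPTP. The same table holds the matching comparison without irisin, with 3 MPTP mice (MPTP for 5 days, then vehicle for 5 days) and 3 CONTROL mice (vehicle for 10 days). No mouse was in both comparisons. A separate table holds a pre-treatment experiment with its own MPTP_M and Control_M groups, 3 mice each. MPTP_M mice received vehicle for 5 days and then MPTP at 30 mg/kg per day for 5 days. Control_M mice received vehicle for 10 days. MPTP was thus given in the last 5 injection days there, and in the first 5 in the MPTP and MPTP_IRISIN mice.

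MPTP is a protoxin. Monoamine oxidase B, largely in glia, turns it into MPP+, which enters dopamine neurons through the dopamine transporter and inhibits complex I of the respiratory chain, so that nigral dopamine neurons and their transcripts are its classic target. Irisin is the secreted part of the membrane protein FNDC5, released by muscle with exercise, and integrins that contain the alpha V subunit are among its described receptors. RNA was counted per gene as raw reads, with 52.9 M to 59.0 M counts in the IRISIN mice and 51.2 M to 55.5 M in the MPTP_IRISIN mice, and levels are given as CPM, counts scaled to a common library total after TMM normalization, with n = 3 mice per group and SD over mice throughout.

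Between MPTP_IRISIN and IRISIN mice, 1 of 21922 tested genes passed an adjusted p of 0.05 by the quasi-likelihood test of edgeR, with p-values adjusted by Benjamini-Hochberg over all tested genes, or 0.00456% of the genes, and it was higher. None was lower. An unadjusted p under 0.05 was reached by 851 genes (3.88%), of which 434 were higher (1.98%) and 417 lower (1.90%), and DESeq2 with no filter on low counts called 35 genes. The midbrain label was met by transcripts of dopamine neurons, with Th at 49.4 to 56.8 CPM in the IRISIN mice. None of the 38 gene lists described here had a member past the adjusted threshold in this comparison by edgeR, so that all list members are given by their values, and the count with an unadjusted p under 0.05 is set against the share of all genes that reached it.

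Most transcripts of dopamine neurons had lower values in the MPTP_IRISIN mice. Of 32 tested genes in 3 lists (dopamine synthesis and transport, dopaminergic transcription factors, and dopaminergic receptors and surface proteins), 26 had a negative log2 fold change, beside 49.8% of all genes, and the median was -0.17, beside 0.00 over all genes. An unadjusted p under 0.05 was reached by 6 members, all lower, where 1.90% of all genes were lower at that threshold. In 7 members every MPTP_IRISIN mouse lay below every IRISIN mouse, and in 1 every mouse lay above, beside 4.28% and 4.41% of all genes. By list, 11 of 12 synthesis and transport genes, 9 of 10 receptor and surface protein genes and 6 of 10 transcription factors were negative. The median of the transcription factors was -0.10, with a range from -0.28 to 0.05 when single mice were left out. All of these are bulk tissue values, in which fewer dopamine neurons and less RNA per neuron cannot be told apart.

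Th encodes tyrosine hydroxylase, the rate-limiting enzyme of dopamine synthesis (ENSMUSG00000000214, chromosome 7, 142892752 to 142931128 in the table). It stood at 52.9, 49.4 and 56.8 CPM in the IRISIN mice and at 33.8, 34.4 and 36.1 CPM in the MPTP_IRISIN mice. The groups did not overlap, and the 3 MPTP_IRISIN mice lay within a narrow range. The means were 53.0 ± 3.68 and 34.8 ± 1.23 CPM, a 1.53-fold lower level with a log2 fold change of -0.61 ± 0.14 (SE) and an unadjusted p of 0.00136 by edgeR's quasi-likelihood test. After Benjamini-Hochberg adjustment over all genes p was 0.883, while DESeq2 with no filter gave an adjusted p of 0.0498. Leaving out any 1 of the 6 mice kept the log2 fold change between -0.66 and -0.56.

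Slc6a3 encodes the dopamine transporter, the route by which MPP+ enters these neurons (ENSMUSG00000021609, chromosome 13, 73536747 to 73578672). It read 58.2, 49.9 and 66.1 CPM in the IRISIN mice against 35.1, 24.5 and 19.2 CPM in the MPTP_IRISIN mice, with no overlap. The level was 2.21-fold lower, with a log2 fold change of -1.15 ± 0.37 (SE), an unadjusted p of 0.0104 and an adjusted p of 1 by edgeR's quasi-likelihood test.

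Chrna6, a nicotinic acetylcholine receptor subunit enriched in dopamine neurons, also separated the groups. Its values were 15.9, 16.5 and 15.3 CPM in the IRISIN mice and 11.2, 8.91 and 9.51 CPM in the MPTP_IRISIN mice, a 1.61-fold lower level with a log2 fold change of -0.69 ± 0.21 (SE) and an unadjusted p of 0.00669 by edgeR. Nr4a2 encodes NURR1, a transcription factor that dopamine neurons need for their identity and upkeep. It stood at 20.9, 18.6 and 14.9 CPM against 15.8, 9.89 and 12.2 CPM, so that 1 MPTP_IRISIN mouse lay above the lowest IRISIN mouse, with a log2 fold change of -0.52 ± 0.17 (SE) and an unadjusted p of 0.0125. Foxa1, a pioneer factor of the floor plate lineage, was expressed at 3.02, 1.81 and 1.84 CPM against 1.38, 1.61 and 0.940 CPM, with a log2 fold change of -0.76 ± 0.31 (SE) and an unadjusted p of 0.0301. Aldh1a1, the aldehyde dehydrogenase of ventral tier neurons, was the 6th member with an unadjusted p under 0.05 (0.0389), with overlapping groups and a log2 fold change of -0.17 ± 0.07 (SE).

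**Figure D1:**
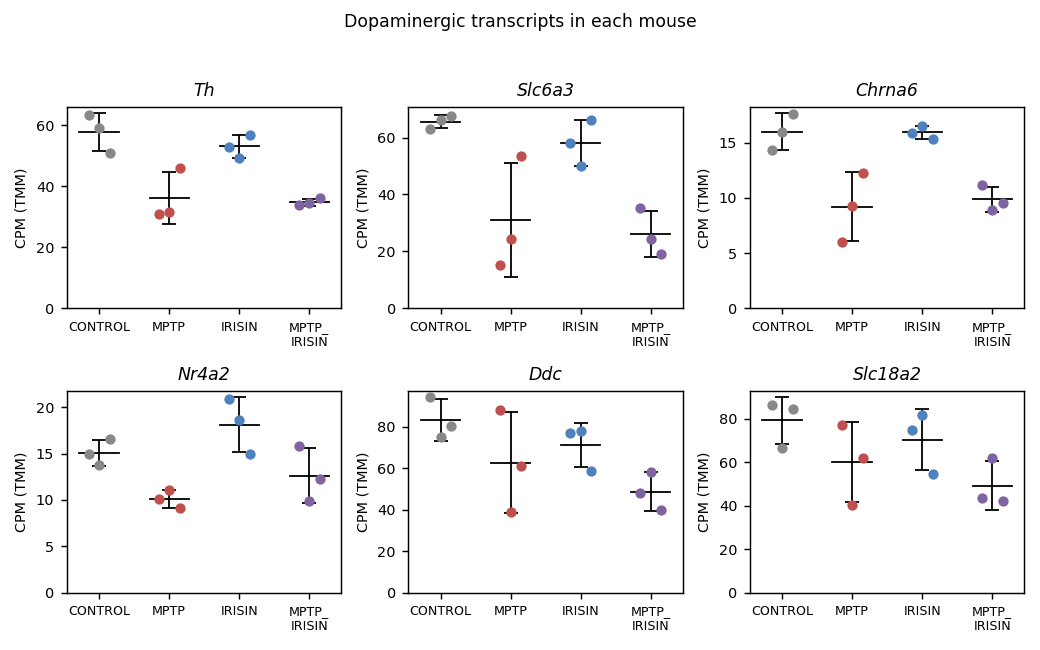
Levels of 6 dopaminergic transcripts in CPM (TMM scaled, linear axes from 0) in each of the 12 mice of the table, with the mean and SD of each group of 3 as black lines. Th, Slc6a3, Chrna6 and Ddc separate the IRISIN from the MPTP_IRISIN mice, while Nr4a2 and Slc18a2 overlap between them.

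The enzymes and transporters that dopamine neurons share with other monoamine neurons were spread more widely. Ddc, the aromatic amino acid decarboxylase, stood at 77.0, 78.0 and 58.8 CPM in the IRISIN mice and 48.2, 58.4 and 39.7 CPM in the MPTP_IRISIN mice, with a log2 fold change of -0.55 ± 0.25 (SE). Slc18a2, the vesicular monoamine transporter, stood at 74.9, 81.8 and 54.6 CPM against 43.5, 62.1 and 41.9 CPM, with a log2 fold change of -0.52 ± 0.24 (SE). Their unadjusted p-values by edgeR were 0.0512 and 0.0531. Both genes are also expressed in serotonergic neurons, and the serotonergic list moved between the same mice. Its 6 transcripts summed to 149.9, 167.9 and 72.1 CPM in the IRISIN mice and to 63.0, 173.2 and 63.5 CPM in the MPTP_IRISIN mice, so that the mice low in Slc18a2 were those low in the serotonergic sum. Tph2, which makes serotonin, stood at 67.7, 79.5 and 21.9 CPM against 20.7, 73.7 and 19.4 CPM, and none of the 6 members reached an unadjusted p of 0.05. The part of the serotonergic neurons in the values of Ddc and Slc18a2 was not tested.

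The remaining members of the dopaminergic lists ranged from -0.50 to 0.67 in log2 fold change. Several lay near 0, with the transcription factors Pitx3, Foxa2, En2 and Sox6 at 0.03, 0.00, -0.01 and 0.05. Chrnb3 and Kcnj6 had -0.02 and -0.01. Gch1, which makes the cofactor of tyrosine hydroxylase, had -0.50 ± 0.32 (SE), and Ret, a receptor subunit for GDNF, had -0.19 ± 0.10 (SE). Maoa had 0.00 and Maob, the enzyme that activates MPTP, -0.15 ± 0.16 (SE). Otx2, a transcription factor of ventral tegmental neurons, went the other way, with 12.9, 9.24 and 7.15 CPM in the IRISIN mice and 14.1, 16.8 and 13.2 CPM in the MPTP_IRISIN mice, a log2 fold change of 0.59 ± 0.27 (SE) and an unadjusted p of 0.0550 by edgeR. Dlk1, an imprinted surface protein, stood on 2 levels, with 120.2, 45.4 and 34.8 CPM against 107, 109.7 and 103 CPM, so that its log2 fold change of 0.67 ± 0.42 (SE) came from 2 low IRISIN mice. Qdpr also fell into a high and a low set, at 179.6 to 180.1 CPM in 2 mice of each group and at 456 and 404 CPM in mouse 3 of each.

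Without irisin most dopaminergic transcripts also had lower values, and 23 of the 32 members had the same sign in both comparisons. Of the 10 transcription factors, 5 did. In MPTP against CONTROL mice, 27 of the 32 members had a negative log2 fold change and 14 reached an unadjusted p under 0.05, all lower, where 4.01% of all genes were lower at that threshold, and in 16 the groups did not overlap, with MPTP below CONTROL, as in 7.94% of all genes. None passed the adjusted threshold there either, where 29 of all genes did (0.132%). The log2 fold change of Th was -0.68 ± 0.14 (SE) without irisin and -0.61 ± 0.14 with it, and that of Slc6a3 was -1.08 ± 0.37 and -1.15 ± 0.37. The difference between the effects, taken as the effect with irisin minus that without, was 0.07 ± 0.20 (SE) for Th, -0.07 ± 0.52 for Slc6a3, 0.11 ± 0.29 for Chrna6 and 0.06 ± 0.25 for Nr4a2, each within 1 SE of 0. These errors do not show that the effects are alike. The effect without irisin also rests on the CONTROL mice, which stood apart in other genes given below. Over the 32 members the median was -0.17 with irisin and -0.38 without, and Otx2 and Dlk1 were the only members whose effects differed at an unadjusted p under 0.05 (0.0109 and 0.0422), with no adjusted p under 0.893, where 9 of all genes (0.0411%) passed the adjusted threshold for the difference. The pre-treatment experiment differed in its mice, its table and its timing, with MPTP in the last 5 injection days. There MPTP_M against Control_M gave -0.25 ± 0.26 (SE) for Th and -0.68 ± 0.23 for Slc6a3, and 0.0221% of its genes passed the adjusted threshold. The 32 members had a median of 0.05 there, with 1 lower at an unadjusted p under 0.05 by edgeR and none higher. The share of all genes at that threshold is not given for that experiment, so that this count has no background beside it.

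Promoter sequences are shown for the members of the dopaminergic and immediate early lists whose promoter holds the palindromic cyclic AMP response element TGACGTCA. Each is 300 bases from RefSeq (GRCm38.p6), 250 before and 50 after the start of the gene, read 5′ to 3′ on the strand of the gene, with the element in capitals. Th is at chr7:142899946-142900245 on the minus strand with the element starting 45 bases upstream, and Slc18a2 at chr19:59260628-59260927 on the plus strand with it 4 bases upstream. Btg2 is at chr1:134079106-134079405 on the minus strand with the element 166 bases upstream, and Dusp1 at chr17:26508423-26508722 on the minus strand with it 143 bases upstream.
Th: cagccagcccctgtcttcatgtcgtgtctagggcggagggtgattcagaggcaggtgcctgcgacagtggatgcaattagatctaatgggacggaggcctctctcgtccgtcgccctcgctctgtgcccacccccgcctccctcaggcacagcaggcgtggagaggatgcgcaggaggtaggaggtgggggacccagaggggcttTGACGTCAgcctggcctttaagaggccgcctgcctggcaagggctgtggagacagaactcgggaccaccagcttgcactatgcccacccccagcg
Slc18a2: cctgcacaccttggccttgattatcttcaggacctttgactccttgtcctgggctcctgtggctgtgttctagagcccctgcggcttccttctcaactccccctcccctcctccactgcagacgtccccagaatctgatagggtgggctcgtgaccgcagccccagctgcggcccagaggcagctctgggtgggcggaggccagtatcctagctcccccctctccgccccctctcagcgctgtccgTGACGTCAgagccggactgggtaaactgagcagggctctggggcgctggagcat
Btg2: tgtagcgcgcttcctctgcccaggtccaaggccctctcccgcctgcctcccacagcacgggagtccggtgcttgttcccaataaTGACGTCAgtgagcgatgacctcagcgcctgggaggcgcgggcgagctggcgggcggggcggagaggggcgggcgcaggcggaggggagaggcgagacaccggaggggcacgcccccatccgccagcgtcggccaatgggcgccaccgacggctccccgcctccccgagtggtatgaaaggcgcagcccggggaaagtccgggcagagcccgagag
Dusp1: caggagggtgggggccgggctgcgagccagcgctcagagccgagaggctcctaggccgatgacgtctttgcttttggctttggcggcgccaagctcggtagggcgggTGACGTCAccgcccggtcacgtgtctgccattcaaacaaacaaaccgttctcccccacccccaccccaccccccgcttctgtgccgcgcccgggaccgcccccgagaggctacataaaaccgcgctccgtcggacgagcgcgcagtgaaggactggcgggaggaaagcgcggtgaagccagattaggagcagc
The element reads the same on both strands. It was in 2 of 26 dopaminergic promoters and 2 of 18 immediate early promoters that matched by symbol (of 32 and 22 tested members), and in 588 of all 32851 promoters of the same length, or 1.79%. A match describes these letters only, binding was not measured, and the part of the element in the values of either list was not tested.

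Immediate early genes, which neurons and vessels switch on within minutes of a stimulus, also had lower values in the MPTP_IRISIN mice. Of 22 tested members, 8 reached an unadjusted p under 0.05 and all 8 were lower with no overlap between the groups, where 1.90% of all genes were lower at that threshold and 4.28% lower without overlap. The median log2 fold change over the list was -0.16. Btg2, an antiproliferative transcriptional cofactor whose promoter is printed above, stood at 46.7, 64.5 and 71.1 CPM in the IRISIN mice and at 21.8, 28.6 and 28.9 CPM in the MPTP_IRISIN mice. That is a 2.30-fold lower level, with a log2 fold change of -1.20 ± 0.26 (SE), an unadjusted p of 0.000803 and an adjusted p of 0.785 by edgeR's quasi-likelihood test. Apold1, an early gene of endothelium, stood at 28.1, 41.1 and 51.0 CPM against 9.68, 15.9 and 14.0 CPM, a 3.04-fold lower level with a log2 fold change of -1.60 ± 0.36 (SE) and an unadjusted p of 0.00109. Both were among the 35 genes that DESeq2 called, with adjusted p-values of 0.00481 and 0.00462.

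Atf3, a stress-induced transcription factor of low level here, stood at 2.93, 6.49 and 6.47 CPM in the IRISIN mice and at 1.34, 1.43 and 1.66 CPM in the MPTP_IRISIN mice, with a log2 fold change of -1.84 ± 0.50 (SE). Nr4a1, the orphan receptor NUR77, stood at 29.5, 41.3 and 42.9 CPM against 18.0, 20.1 and 24.5 CPM, with a log2 fold change of -0.86 ± 0.27 (SE). Dusp1, a phosphatase that switches off MAP kinases, stood at 51.7, 61.1 and 66.0 CPM against 31.6, 48.2 and 45.4 CPM, with a log2 fold change of -0.51 ± 0.19 (SE). In these genes IRISIN mouse 1 was the lowest of its group and still above every MPTP_IRISIN mouse. Jun, Junb and Fosl2, subunits of the AP-1 factor, had -0.33 ± 0.11, -0.62 ± 0.23 and -0.43 ± 0.15 (SE). Other classic members had overlapping groups. Fos had 36.5, 39.9 and 40.9 CPM against 36.5, 40.0 and 37.1 CPM, and Arc, Egr1, Egr2, Egr4, Npas4 and Nr4a3 had log2 fold changes between -0.08 and 0.13.

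**Figure D2:**
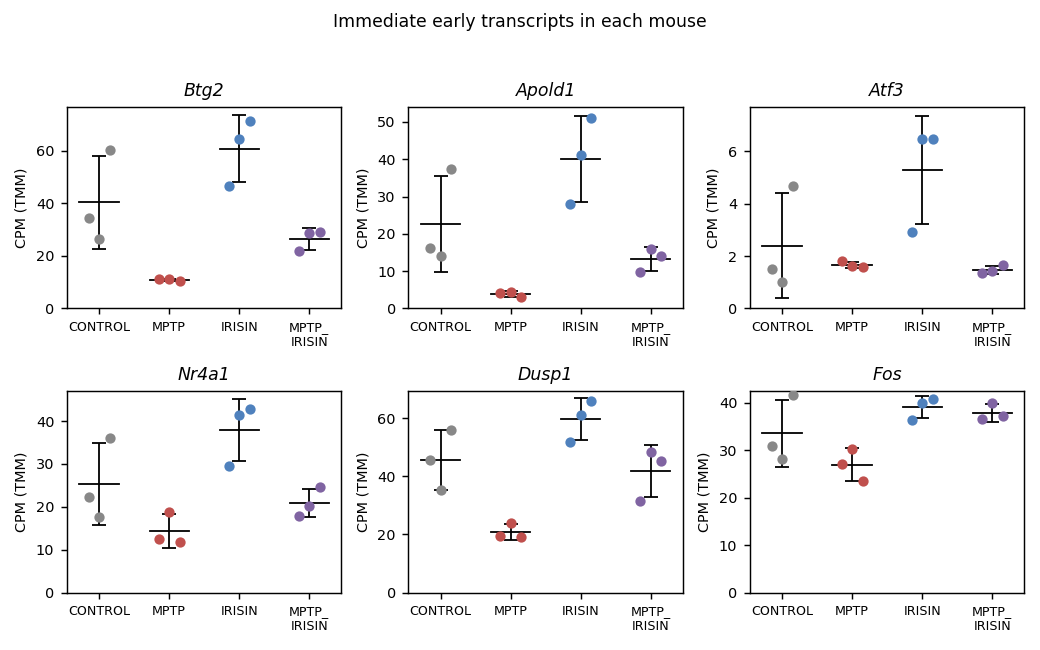
Levels of 6 immediate early transcripts in CPM (TMM scaled, linear axes from 0) in each of the 12 mice, with the mean and SD of each group of 3 as black lines. Btg2, Apold1, Atf3, Nr4a1 and Dusp1 lie lower in every MPTP_IRISIN mouse than in every IRISIN mouse, and Fos does not.

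The IRISIN mice had the highest group means of Btg2, Apold1, Atf3, Nr4a1 and Dusp1 in the table. The mean of Btg2 was 60.8 ± 12.6 CPM in the IRISIN mice and 40.4 ± 17.6 in the CONTROL mice, and 26.4 ± 4.02 in the MPTP_IRISIN mice and 10.9 ± 0.441 in the MPTP mice. Btg2 and Apold1 fell in MPTP against CONTROL mice, with log2 fold changes of -1.89 ± 0.27 and -2.56 ± 0.38 (SE) and adjusted p-values of 0.0236 and 0.0308 by edgeR's quasi-likelihood test. The effect with irisin minus that without was 0.69 ± 0.37 for Btg2 and 0.96 ± 0.51 for Apold1, each with an adjusted p of 0.908, while Atf3 gave -1.32 ± 0.69. The single CONTROL mouse 3 was high in both genes, at 60.2 CPM for Btg2 and 37.5 CPM for Apold1, beside 26.5 to 34.4 and 14.2 to 16.3 CPM in the other two. At an unadjusted p under 0.05 the effects differed in 4 members, Dusp1, Ier2, Jund and Klf2, each with the higher log2 fold change among the irisin-treated mice, where 2.81% of all genes were higher at that threshold. In the pre-treatment experiment Apold1 and Atf3 had the opposite sign, at 1.39 ± 0.19 and 1.78 ± 0.33 (SE), and Klf4 rose, at 1.39 with an adjusted p of 0.0211 by edgeR's quasi-likelihood test, while it had -0.42 ± 0.26 (SE) among the irisin-treated mice. These genes do not stand for the list, whose 22 members had a median of 0.11 there. At an unadjusted p under 0.05 by edgeR, 4 members were higher and 1 lower there, and the share of all genes at that threshold is not given.

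Csrnp1 and Ppp1r10 are on no list and are among the 12 lower genes with the smallest p-values. Csrnp1, an early gene induced by AXIN1, stood at 10.3, 16.7 and 15.6 CPM in the IRISIN mice and 5.45, 7.89 and 7.68 CPM in the MPTP_IRISIN mice, with a log2 fold change of -1.02 ± 0.22 (SE). Ppp1r10, a nuclear targeting subunit of protein phosphatase 1, stood at 67.9, 68.3 and 72.3 CPM against 52.8, 57.8 and 56.0 CPM, with a log2 fold change of -0.32 ± 0.06 (SE) and an unadjusted p of 0.000149 by edgeR. It had -0.26 ± 0.06 without irisin. Zfp36, an mRNA decay factor singled out after its values were seen, had -0.97 ± 0.25 (SE) here and fell by 1.63 on the log2 scale without irisin, with an adjusted p of 0.0361 by edgeR's quasi-likelihood test.

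Over all genes, the effects with and without irisin were compared by the lists each gave. An unadjusted p under 0.05 was reached by 851 genes with irisin and 1826 genes (8.33%) without, and 127 were in both, or 14.9% of the first and 6.96% of the second. Of these 127, 56 were lower in both, 35 higher in both and 36 opposite in sign. Across the 16083 genes with a mean of at least 1 CPM, the Spearman correlation of the log2 fold changes was 0.0433, as a description over genes of 12 mice, which are not independent. No gene passed the adjusted threshold in both comparisons. Of the 30 genes called in either, 53.3% had the same sign in both.

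**Figure D3:**
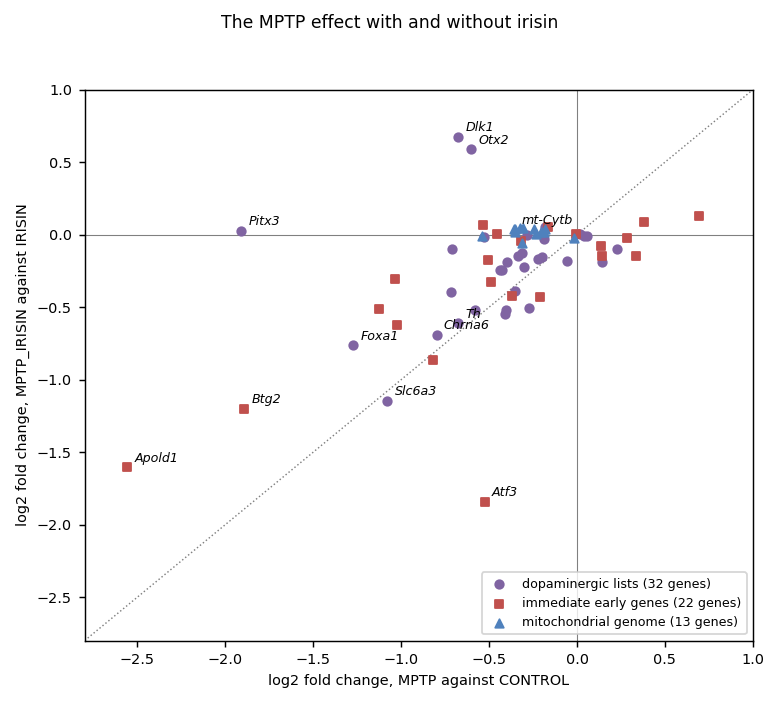
Log2 fold changes of MPTP_IRISIN against IRISIN (vertical axis) and of MPTP against CONTROL (horizontal axis) for 32 dopaminergic, 22 immediate early and 13 mitochondrial genome transcripts, 1 point per gene, with the dotted line where both are equal. Th, Slc6a3 and Chrna6 lie near the line, Btg2 and Apold1 lie lower without irisin, and the mitochondrial transcripts lie near 0 on the vertical axis and below 0 on the horizontal axis.

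Transcripts of the mitochondrial genome, which encode respiratory chain subunits including parts of complex I, had nearly equal values in both groups. All 13 had log2 fold changes between -0.06 and 0.05 with a median of 0.02, and none reached an unadjusted p of 0.05. mt-Cytb, a subunit of complex III, had means of 8190 ± 324 CPM in the IRISIN mice and 8411 ± 414 CPM in the MPTP_IRISIN mice. Without irisin the same list had a median of -0.31 and 10 members with an unadjusted p under 0.05, all lower, where 4.01% of all genes were lower at that threshold. mt-Cytb fell there, from 9845 ± 650 to 7698 ± 337 CPM, with an adjusted p of 0.0467 by edgeR's quasi-likelihood test. The 2 effects differed at an unadjusted p under 0.05 in 9 of the 13 members, where 5.57% of all genes did, and the smallest adjusted p for the difference was 0.317. The CONTROL mice had the highest levels, with mitochondrial transcripts at 8.48 to 9.50% of all counts, beside 8.04 to 8.71% in the IRISIN, 7.87 to 8.68% in the MPTP_IRISIN and 7.65 to 7.80% in the MPTP mice. They also stood apart in other genes, given below, so that this group difference and an effect of MPTP or irisin cannot be told apart. Nuclear complex I subunits had a median of -0.03 over 36 members and none under an unadjusted p of 0.05, and mitochondrial biogenesis and dynamics had a median of 0.02 over 8 members, with Ppargc1a at 0.08 ± 0.07 (SE).

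The gene that passed the adjusted threshold was Gm20632 (ENSMUSG00000093577), annotated in GENCODE M21 as an antisense transcript on the plus strand of chromosome 3, 96239393 to 96241819 (GRCm38). It overlaps the histone gene Hist2h2aa2 on the opposite strand (96239749 to 96240276), and whether the authors counted by strand is not given in the sources used here, so that reads of either gene cannot be told apart. It stood at 3.58, 2.38 and 2.47 CPM in the IRISIN mice and rose to 8.67, 10.1 and 7.78 CPM in the MPTP_IRISIN mice. That is a 3.16-fold higher level, with a log2 fold change of 1.66 ± 0.17 (SE) and an adjusted p of 0.0272 by edgeR's quasi-likelihood test. The CONTROL mice had 11.1, 9.65 and 9.97 CPM and the MPTP mice 10.2, 9.24 and 8.22 CPM, so that the IRISIN mice were the group that stood apart. The effect with irisin minus that without was 1.81 ± 0.24 (SE), with an adjusted p of 0.0291. The call was lost without IRISIN mouse 2 (adjusted p of 0.128), IRISIN mouse 3 (0.0661) or MPTP_IRISIN mouse 1 (0.0708), and in a fit of the 2 compared groups alone (0.310), while the log2 fold change stayed between 1.55 and 1.87 over the 6 omissions.

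Tmem168, a transmembrane protein gene on chromosome 6 (13580687 to 13608100), was the lower gene with the smallest p. It stood at 18.8, 17.1 and 17.6 CPM in the IRISIN mice and 4.73, 10.2 and 5.68 CPM in the MPTP_IRISIN mice, with a log2 fold change of -1.38 ± 0.23 (SE) and an adjusted p of 0.638 by edgeR's quasi-likelihood test. The other 6 mice of the table lay between 16.4 and 20.9 CPM, so that here the MPTP_IRISIN mice stood apart. Without MPTP_IRISIN mouse 2, the one nearest the IRISIN mice at 10.2 CPM, the adjusted p was 0.00109 by the same test. Tmem168 passed the adjusted threshold in 2 of 14 alternative settings, this omission and DESeq2 with no filter.

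Hk1, the main hexokinase of brain, lay on a high and a low level that did not follow MPTP across the table. It stood at 266, 292 and 281 CPM in the IRISIN mice and 388, 384 and 398 CPM in the MPTP_IRISIN mice, with 399 to 407 CPM in the CONTROL mice and 271, 381 and 282 CPM in the MPTP mice. Itgam, the CD11b surface protein of microglia, stood at 17.0, 19.4 and 15.7 CPM against 7.86, 7.65 and 7.74 CPM, and single CONTROL and MPTP mice had 8.41 and 7.28 CPM. By a fixed gap rule (the widest step between neighbouring mice over 0.8 on the log2 scale, and wider than the range on each side), 5.37% of the tested genes stood on 2 levels over the 12 mice, among them 52 of the 851 with an unadjusted p under 0.05 in this comparison, but not Hk1 or Itgam.

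The other genes with the smallest p-values were mostly of low count. Gm28372, Gm28784, Vsig1 and Gm8225 had no count in any IRISIN mouse, and against a floor of 3 counts per library were at least 8.40-fold, 5.83-fold, 4.74-fold and 14.1-fold higher in the MPTP_IRISIN mice. 2310040G07Rik and Gm48732 had no count in any MPTP_IRISIN mouse and were at least 3.64-fold and 5.90-fold lower. Among well-expressed genes, Rps14, a ribosomal protein gene, stood at 189.5, 169 and 196 CPM against 139.5, 139 and 147 CPM, with a log2 fold change of -0.38 ± 0.07 (SE). Nap1l4, Nbdy and Gsg1l had -0.25 ± 0.05, -0.51 ± 0.10 and -0.30 ± 0.06 (SE). Kbtbd8, Zbtb39 and Zdhhc14 had 0.95 ± 0.20, 0.53 ± 0.11 and 0.42 ± 0.09 (SE). Gm44341, 2610035F20Rik and Gm19144 had 3.29 ± 0.66, 1.21 ± 0.25 and 2.08 ± 0.48, and Sfta3-ps and B230322F03Rik had -2.52 ± 0.47 and -1.66 ± 0.36, at means of 0.0472 to 2.17 CPM in either group. In each of these the groups did not overlap, as they did not in 8.69% of all genes, and none passed the adjusted threshold by edgeR.

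**Figure D4:**
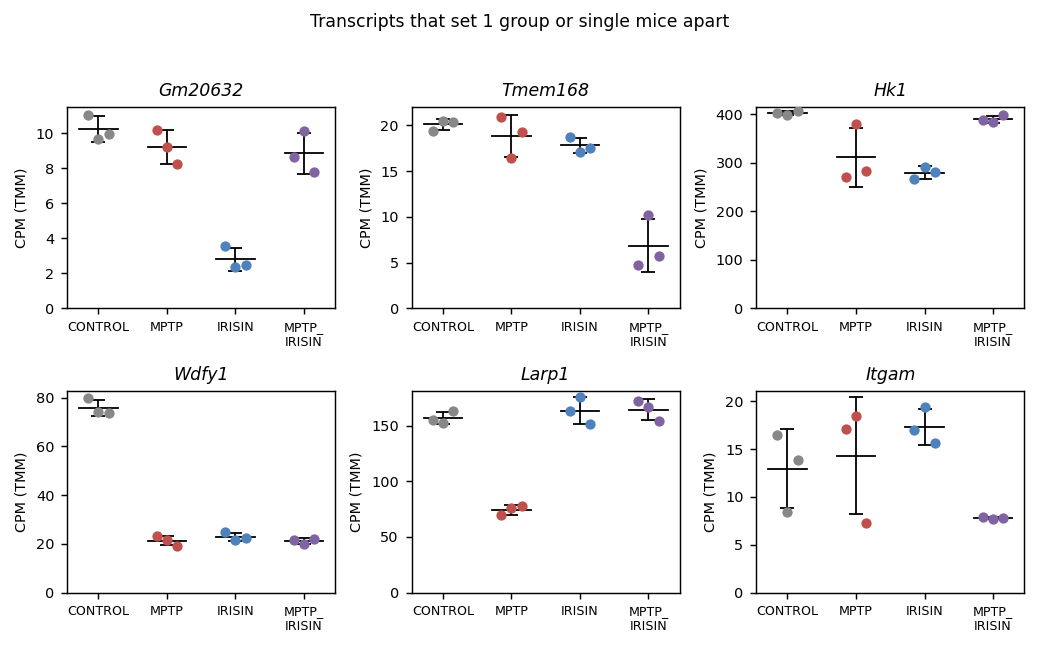
Levels of 6 transcripts in CPM (TMM scaled, linear axes from 0) in each of the 12 mice, with the mean and SD of each group of 3 as black lines. Gm20632 is low in the IRISIN mice and Tmem168 in the MPTP_IRISIN mice, Wdfy1 is high in the CONTROL mice and Larp1 low in the MPTP mice, and Hk1 and Itgam change level between mice of a group.

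Genes that separated single groups elsewhere in the table did not separate the irisin-treated groups. Wdfy1, one of the transcripts known to vary between C57BL/6 substrains, stood at 73.8 to 79.7 CPM in the CONTROL mice and between 19.2 and 24.7 CPM in the other 9 mice, with a log2 fold change of -0.11 ± 0.09 (SE) between MPTP_IRISIN and IRISIN mice. Gabra2, a GABA receptor subunit that also varies between substrains, had -0.04 ± 0.14 here and -1.25 ± 0.14 (SE) in MPTP against CONTROL mice. Crb1 and Gm15446 followed the same split, at 0.385 to 0.689 and 0.642 to 1.49 CPM in the CONTROL mice, and had -0.23 ± 0.22 and -0.21 ± 0.20 here. The labels give no substrain, and its part was not tested. The log2 fold changes between the irisin-treated groups are not taken against the CONTROL mice, which enter the same fit through the filter, the scaling and the estimate of the spread. Those of MPTP against CONTROL, and the differences of the effects, are taken against the CONTROL mice. In these, MPTP or irisin and whatever sets the CONTROL mice apart cannot be told apart. The 7 tested substrain genes had a median of -0.09, and Mmrn1 reached an unadjusted p under 0.05, with no count in any MPTP_IRISIN mouse and a group mean at least 2.05-fold lower. The groups overlapped in all 7 genes, so that at least 1 IRISIN mouse had no count of Mmrn1 either. Nnt, part of which is deleted in the 6J substrain, stood at 4.47, 42.8 and 43.1 CPM in the IRISIN mice and 39.8, 6.08 and 44.4 CPM in the MPTP_IRISIN mice, so that 1 mouse of each group was low.

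Of the markers of glia, 2 astrocytic ones were higher and 1 microglial and 1 oligodendrocyte one lower at an unadjusted p under 0.05. At that threshold 1.98% of all genes were higher and 1.90% lower. The largest of these marker differences was that of Itgam, at -1.16 ± 0.32 (SE). Of 8 astrocyte genes, Aqp4, the water channel of astrocyte end feet, was the 1 with an unadjusted p under 0.05, with 280.4, 275 and 261 CPM against 302, 335 and 306 CPM and a log2 fold change of 0.21 ± 0.08 (SE). Gfap had 0.19 ± 0.15. Of 14 reactive astrocyte genes, 1 (S1pr3, at 0.22 ± 0.10) reached that threshold and the median was 0.03. Resting microglia genes had a median of 0.01 over 12 members with 1 lower (Itgam), and the 11 tested genes of activated microglia had a median of 0.20 with none at an unadjusted p under 0.05, ranging from -0.35 to 2.58 (Cst7, at 0.0991 and 0.604 CPM on average). That median lay between 0.07 and 0.36 without single mice, the lowest without IRISIN mouse 3, and between 0.01 and 0.20 under the other settings. The oligodendrocyte lineage had a median of -0.03 over 15 members, with Mal, a myelin proteolipid, at -0.16 ± 0.06 (SE). Interferon response genes had a median of 0.04 over 10 members and none at that threshold.

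Stress and signalling lists had medians between -0.10 and 0.03. At an unadjusted p under 0.05, 1.98% of all genes were higher and 1.90% lower. Of 11 heat shock chaperones, Dnajb1 had 0.17 ± 0.06 and Hspa8 -0.25 ± 0.10 (SE), and the median was -0.07. The summed level of the 11 was 5236, 5330 and 5522 CPM in the IRISIN mice and 4588, 4687 and 5038 CPM in the MPTP_IRISIN mice, without overlap. A sum gives most weight to the members with the most counts. By member, 4 log2 fold changes were positive and 7 negative, beside 49.8% negative over all genes. Sesn2, a stress-induced inhibitor of mTORC1 signalling, was the 1 of 10 integrated stress response genes with an unadjusted p under 0.05, with 20.1, 18.5 and 18.6 CPM against 22.8, 24.2 and 22.8 CPM. Ddit4, another such inhibitor, was the 1 of 13 glucocorticoid response genes, with 51.7, 67.6 and 68.3 CPM against 42.8, 47.4 and 44.9 CPM, and had a log2 fold change of -0.47 ± 0.16 (SE) with irisin and -0.50 ± 0.16 without. Of 14 circadian clock genes, Npas2 had 7.84, 7.61 and 7.54 CPM against 9.86, 11.0 and 9.93 CPM. Endoplasmic reticulum chaperones (median -0.02 over 11), apoptosis and oxidative stress genes (-0.01 over 10), cholesterol synthesis (0.02 over 19), collagens (0.03 over 14), Parkinson disease genes (-0.03 over 14) and irisin receptor signaling (0.01 over 14) had no member with an unadjusted p under 0.05. Among the last, Fndc5, the precursor of irisin, stood at 159.5 to 170.3 CPM in the IRISIN mice and 155 to 181 CPM in the MPTP_IRISIN mice, and Bdnf, a neurotrophin, had -0.17 ± 0.18 (SE).

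Markers of neighbouring structures varied between single mice. The 10 choroid plexus transcripts, led by Ttr, summed to 68.9, 73.8 and 305.9 CPM in the IRISIN mice and 180.2, 1698 and 586.6 CPM in the MPTP_IRISIN mice. All 10 had a positive log2 fold change with a median of 1.70, which was 0.55 without MPTP_IRISIN mouse 2. An unadjusted p under 0.05 was reached by 2 of them (Slc4a5 and Prlr), where 1.98% of all genes were higher at that threshold. The 7 hypothalamic peptides summed to 103.9 CPM in IRISIN mouse 1 and 129.5 CPM in MPTP_IRISIN mouse 1, and to 10.2 to 17.6 CPM in the other mice of both groups. The median of the hypothalamic list was 0.27, with a range from -1.36 to 3.75 when single mice were left out. Of 3 tested pituitary genes, with a median of -5.07, Prl had 68 counts over the IRISIN mice and none in the MPTP_IRISIN mice. Its group mean was at least 7.33-fold lower in the latter. The groups overlapped in all 3 genes, so that at least 1 IRISIN mouse had no count of Prl either. Gh had 412 and 12 counts in all, 311 of the former in IRISIN mouse 1. Tshb had -0.43 ± 0.22 (SE). The part of these structures in other values was not tested.

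**Figure D5:**
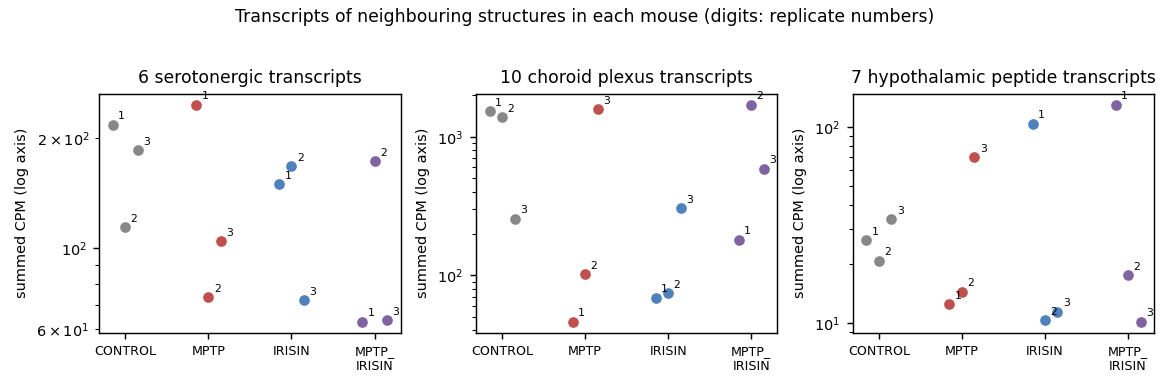
Summed CPM (log axes) of 3 marker lists in each of the 12 mice, with digits for the replicate number. The serotonergic sum is low in IRISIN mouse 3 and MPTP_IRISIN mice 1 and 3, the choroid plexus sum is highest in MPTP_IRISIN mouse 2, and hypothalamic peptides are high in mouse 1 of both irisin groups.

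The other lists had no member with an unadjusted p under 0.05. Their median log2 fold changes were 0.31 for noradrenergic neurons, 0.06 for GABA neurons, -0.10 for glutamate and cholinergic neurons, 0.21 for striatal neurons and 0.28 for thalamic neurons. The striatal median was -0.08 without MPTP_IRISIN mouse 2 and the thalamic one -0.16 without MPTP_IRISIN mouse 1. Among vessel and lining cells the medians were -0.02 for endothelium, -0.10 for mural cells, -0.02 for meningeal fibroblasts, -0.16 for ependyma and 0.12 for blood, the last -0.36 without MPTP_IRISIN mouse 2. In serotonergic neurons the median was -0.25, and -1.03 without MPTP_IRISIN mouse 2.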

How the data were processed

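Midbrain RNA was measured by RNA-seq. The authors counted reads per gene with featureCounts and deposited raw counts and FPKM values for every mouse, and the submitters' notes also name HISAT, StringTie, edgeR and mm9, with no role given. Of 439 list and named genes found in GENCODE M21 (GRCm38), 390 had the same coordinates in the table. Counts of the 12 mice and 4 groups of the table were fitted together in R 4.3.3 with edgeR 4.0.16 (filterByExpr, least count 10, least total count 15, TMM, quasi-likelihood test, two-sided), and p-values were adjusted by Benjamini-Hochberg across the whole table, with 0.05 as the threshold. The SE is the log2 fold change divided by the square root of F. The pre-treatment table was fitted separately. No label says whether mice of a group shared a cage or a day, and a permutation test of 3 against 3 cannot go below an exact p of 0.10. No pair of mice within a group agreed within sampling noise.

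Named are the dopaminergic list members, the 12 higher and 12 lower genes with the smallest p, members of other lists by smallest p (up to 3), and up to 6 genes whose effects differed with and without irisin. The groups, members and 38 lists were chosen with earlier results of these data known. Alternatives were DESeq2 1.42.0, limma 3.58.1 on log2(FPKM + 1) and log2(FPKM + 0.1), other filters and scaling, the compared groups alone, the replicate number as a block, and leaving out each mouse. Floors cover counting error only.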

Additional observations from a re-analysis of the deposited data

Results flagged for a closer look

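The effect of MPTP with irisin and that without it differed, past an adjusted p of 0.05 for the difference by edgeR's quasi-likelihood test, in 9 genes (0.0411%), of which 7 are named here. The difference is given as the log2 fold change with irisin minus that without. For Gm20632 it was 1.81, and the IRISIN mice were low. For Wdfy1 it was 1.72, with the CONTROL mice at 75.9 ± 3.28 CPM and the means of the other groups between 21.2 and 22.8 CPM. For Larp1, an RNA-binding protein that controls translation of ribosomal protein mRNAs, it was 1.09, and here the MPTP mice were low, at 69.6, 76.1 and 77.6 CPM, beside 152 to 176 CPM in the IRISIN and 154 to 172 CPM in the MPTP_IRISIN mice. Crb1 and Gm15446 had -2.82 and -4.35, with the CONTROL mice low. Gm10591 and Gm10599 had fitted differences of -10.1 and -8.71, which depend on the prior count since Gm10591 had no count in any CONTROL mouse and Gm10599 0.0207 CPM in 1 of them and none in the other two. Of these 7 genes, Gm20632 was the only one called between MPTP_IRISIN and IRISIN mice. What sets the single groups apart was not tested.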

How the results depend on the processing

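Between MPTP_IRISIN and IRISIN mice, 1 gene passed an adjusted p of 0.05 with other filters, RLE scaling or limma on log2(FPKM + 1) or log2(FPKM + 0.1). DESeq2 with no filter gave 35 genes, 14 of them higher, the compared groups alone gave 3, and leaving out single mice gave 0 to 10, with 0 without IRISIN mouse 2 and 10 without IRISIN mouse 1. An unadjusted p under 0.05 with at least a 2-fold change was met by 272 genes. MPTP against CONTROL went from 29 genes to 178 with DESeq2, 10 with the compared groups alone and 16 to 35 without single mice. The difference of the effects went from 9 genes to 62 with DESeq2, 3 with limma on log2(FPKM + 1) and 7 to 19 without single mice, and MPTP_M against Control_M from 5 to 91 with DESeq2, 10 with the compared groups alone and 7 to 17 without single mice. Gene lists with a called member went from 0 to 2 with DESeq2. Of the named genes, 1 was called, 25 with DESeq2, 0 with the compared groups alone and 0 to 2 without single mice. The causes were not tested. Leaving out 1 mouse changed the sign of 31 of 165 named genes and of 22 of 38 list medians. In 4 of these genes the log2 fold change with all mice was over 1 SE. Those of Pomc (-1.81 to 0.80 over single omissions), Spr (-0.65 to 0.027), Prkcd (-0.16 to 1.06) and Col8a1 (-0.0048 to 0.72) changed sign without IRISIN mouse 1, IRISIN mouse 3, MPTP_IRISIN mouse 1 and MPTP_IRISIN mouse 2.

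Mice with the same replicate number in the irisin groups had deviations over all genes that correlated at -0.0171, -0.0876 and 0.0527. Not every mouse correlated best with its own number. Whether the numbers stand for a shared day or batch was not tested. With the replicate number as a block, 1 gene was called here, 17 in MPTP against CONTROL, 7 in the difference, 2 in MPTP_M against Control_M and 1 of the named genes, no list had a called member, and 61.1% of the called genes had the same sign. At 51.2 M to 59.0 M counts, genes listed at 0 are limited by the floor of 3 counts a library.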
